A study of Mus musculus with 14 samples.

Results

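The Hox genes of the 4 Hox clusters were followed in mouse embryonic stem cells (ESCs) with and without the RNase III enzyme Drosha, and between them in ESCs with and without the RNase III enzyme Dicer. They were taken as rows of the RNA-seq gene table with a name made of Hox, a cluster letter from a to d and a number. This gave 33 of the 38 Hox genes considered here, out of 22376 genes in the table. Of the Hoxa cluster 9 of 10 considered genes had a row, of Hoxb 9 of 10, of Hoxc 9 of 9 and of Hoxd 6 of 9. Hoxa6, Hoxb1, Hoxd3, Hoxd4 and Hoxd10 were not analysed here. Stranded polyA RNA-seq covered 3 control libraries and 3 libraries without Drosha. Degradome-seq, which maps polyA RNA ends that carry a 5′ monophosphate (5′P), covered 2 control and 2 deficient libraries for each enzyme.

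All Drosha libraries came from the line Drosha fl/fl Gt(ROSA)26SorCreERT2, in which both Drosha alleles are floxed and a tamoxifen-inducible Cre is expressed from the Rosa26 locus. Controls of that line were untreated. Drosha-deficient cells had received 100 nM 4-hydroxytamoxifen for 72 h and were grown for another 48 h without it, so the drug and the deletion cannot be told apart. The Dicer libraries came from Dicer fl/fl ESCs transduced with a retrovirus that carried GFP alone (control) or Cre with GFP (Dicer-deficient), and the GFP+ cells were sorted on day 3 and kept in culture for another 2 days. Each genotype was a single line, and all cells were grown with LIF on inactivated mouse embryonic fibroblasts. Nothing in the labels says that replicate libraries came from separate cultures, so p-values measure the spread between libraries, which may be technical.

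Hox genes encode homeodomain transcription factors that give cells of the embryo their position along the head-to-tail axis. Within a cluster the genes lie in the same transcriptional direction and are numbered by paralog group. Low numbers, at the 3′ end, act in the head and hindbrain, and high numbers, at the 5′ end, act in the trunk, tail, limbs and genital tract. In ESCs the clusters are known to be held silent by Polycomb complexes until signals such as retinoic acid, Wnt and Fgf open them. The clusters also hold miRNA genes of the miR-196, miR-10 and miR-615 families.

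The Hox genes were among the weakly represented genes of the RNA-seq table. The value used here is the authors' mean level of a gene over all 6 libraries, in CPM (read counts scaled to the size of the library), which pools control and Drosha-deficient cells. It is a single value per gene, so it has no spread and allows no test between the groups, and the fold change columns that the authors deposited beside it were not used. Of the 33 Hox genes, 5 (15.2%) lay at or above 1 CPM, against 65.0% of all genes in the table and 80.3% of its protein-coding genes. Their median level was −1.73 on the log2 CPM scale, against 2.34 for all genes, and 32 of the 33 lay below the median of the table. Hoxc13 was the exception, at the 53.6th percentile. Summed over the 33 genes the level was 22.4 CPM, of which the 5 genes at or above 1 CPM held 58.5%.

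The other 28 genes were too low to judge at 1 CPM. Of these, 5 lay between 0.5 and 1 CPM and 23 below 0.5 CPM. The lowest level of any gene in the table was 0.105 CPM, which includes the small prior count that edgeR adds. Within 1 log2 unit of that lowest level lay 10 Hox genes (Hoxa2, Hoxa11, Hoxb3, Hoxb5, Hoxb6, Hoxc9, Hoxc11, Hoxd1, Hoxd11 and Hoxd12), and 14.0% of all genes. These 10 cannot be told from genes with almost no reads. Whether the counting used strand is not given in the sources used here, so reads of antisense genes could be included, chiefly in Hoxb3 (52.9% of its exon bases face a gene on the other strand), Hoxa11 (35.0%), Hoxb2 (27.3%) and Hoxa3 (25.4%). The 1 CPM line passed between close neighbours, with Hoxd9 at 1.02 CPM and Hoxc12 at 1.07 CPM just inside it and Hoxd13 at 0.877 CPM and Hoxd8 at 0.836 CPM just outside.

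**Figure D1:**
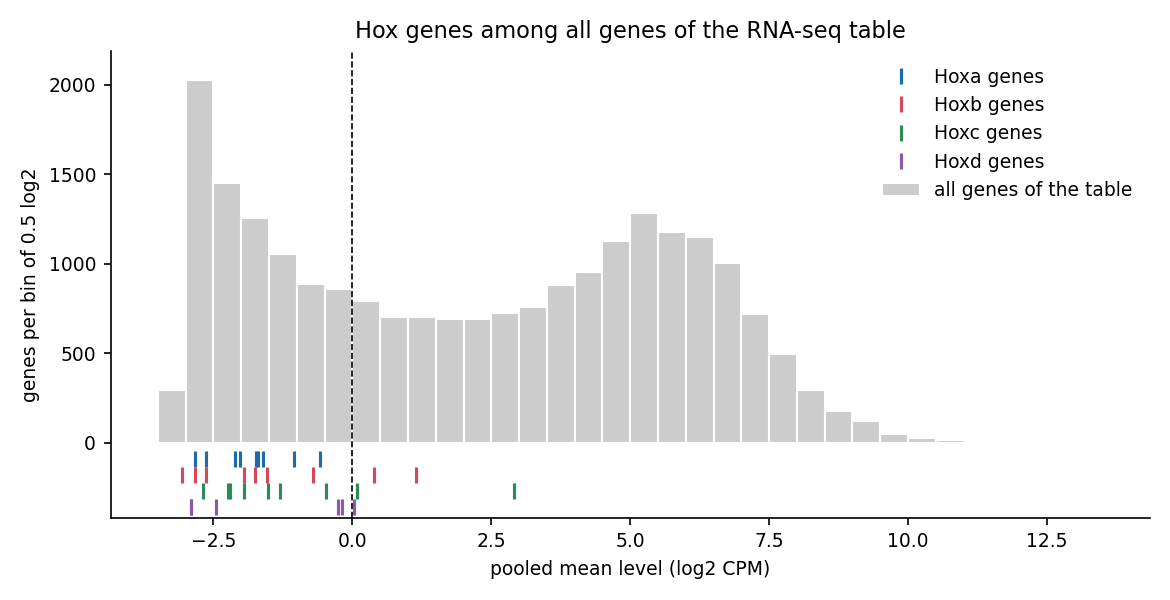
Distribution of the pooled mean level (x axis, log2 CPM) over all genes of the RNA-seq table (grey bars, genes per bin of 0.5 log2 on the y axis), with a tick for each Hox gene in a row for its cluster below the bars. The dashed line marks 1 CPM, and 5 of the 33 ticks lie to its right.

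In the Hoxc cluster (chr15:102921103-103036852, plus strand, GRCm38) only the 2 genes at the 5′ end reached 1 CPM. Hoxc13 (chr15:102921103-102928814), a gene known for hair and nail formation, was the highest of the 33 Hox genes, with 7.50 CPM, or 33.5% of the summed Hox level. Divided by the length of its exons, so that genes can be compared, it stood at 3.05 CPM per kb. Its neighbour Hoxc12 (chr15:102936757-102938609) had 1.07 CPM, which over its short exons of 1.03 kb made 1.03 CPM per kb, second to Hoxc13 among the 33. The next gene, Hoxc11, which acts in the hindlimb and lumbosacral region, was the lowest of the cluster in CPM, at 0.154 CPM, and is one of the 10 genes near the lowest level. Per kb Hoxc5 was the lowest of the cluster. From Hoxc4 to Hoxc10 the genes lay between 0.211 CPM (Hoxc9) and 0.722 CPM (Hoxc4).

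In the Hoxa cluster (chr6:52162417-52260880 from Hoxa2 to Hoxa13, minus strand) none of the 9 genes reached 1 CPM. Hoxa4 was the highest of them, with 0.667 CPM and 0.419 CPM per kb, and Hoxa10 followed with 0.485 CPM. Hoxa2 (chr6:52162417-52164831), which acts in the second pharyngeal arch, was the lowest at 0.140 CPM. Of the exons of Hoxa2, 15.0% of the bases are shared with the transcript Gm28308 on the same strand, so its reads could have been split. At the 5′ end Hoxa13, a gene of the limbs and genital tract, had 0.246 CPM.

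In the Hoxb cluster (chr11:96194316-96368256, plus strand) the 2 genes at the 5′ end were the ones above 1 CPM. Hoxb9 (chr11:96271457-96276595), which acts in the thoracic skeleton, had 2.21 CPM and 0.859 CPM per kb. Hoxb13 (chr11:96194316-96197447), which acts in the tail and prostate and lies apart from the rest of its cluster, had 1.31 CPM and 0.596 CPM per kb. Hoxb8, directly next to Hoxb9, had 0.260 CPM and 0.0986 CPM per kb. Hoxb5 was the lowest of the 33 Hox genes at 0.119 CPM. The remaining genes from Hoxb2 to Hoxb7 ranged up to 0.610 CPM, in Hoxb4.

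The Hoxd cluster (chr2:74668310-74765142, plus strand) had 14.2% of the summed level, with 6 genes measured. Hoxd9 (chr2:74697727-74700208) led it at 1.02 CPM and 0.477 CPM per kb. Hoxd13, the gene of digits and genitals at the 5′ end, had 0.877 CPM, and Hoxd8 had 0.836 CPM. The gene between Hoxd13 and Hoxd11, Hoxd12, was the lowest of the cluster at 0.133 CPM, at nearly the level of Hoxd1 (0.133 CPM). Hoxd11 shares 10.8% of its exon bases with Gm28309 on the same strand and had 0.183 CPM. Hoxc held 48.6% of the summed level, Hoxb 24.4% and Hoxa 12.8%.

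**Figure D2:**
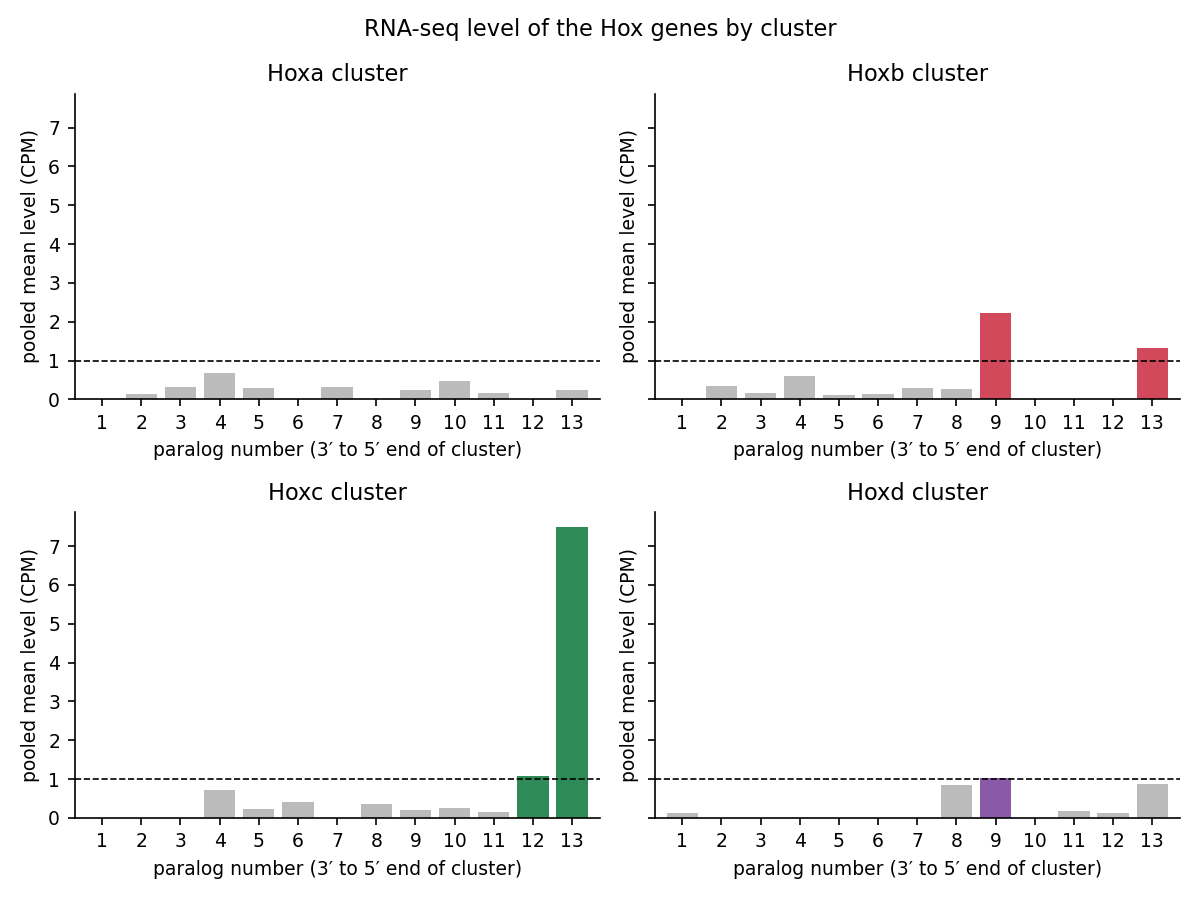
Pooled mean level (y axis, CPM) of each Hox gene by paralog number (x axis, from the 3′ to the 5′ end of the cluster), 1 panel per cluster. Colored bars lie at or above 1 CPM (dashed line), grey bars below it, and a number without a bar has no gene, no row in the table or is not shown; the highest bars are Hoxc13 and Hoxb9.

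Ordered by paralog group, those of the 33 genes that lay above 1 CPM all had high numbers. In groups 1 to 3 the count was 0 of 5 genes, in groups 4 to 8 it was 0 of 13, and in groups 9 to 13 it was 5 of 15. Groups 12 and 13 alone gave 3 of 6. At 0.5 CPM the counts were 0 of 5, 4 of 13 and 6 of 15, and the median of groups 9 to 13 (0.260 CPM) was below that of groups 4 to 8 (0.309 CPM), so the split at 1 CPM rests on 5 genes. Within group 13 the levels ran from 0.246 CPM in Hoxa13 to 7.50 CPM in Hoxc13, and within group 9 from 0.211 CPM in Hoxc9 to 2.21 CPM in Hoxb9. No fold is given between them, since the low values lie close to the lowest level of the table. In group 12, Hoxc12 had 1.07 CPM and Hoxd12, one of the 10 genes near the lowest level, 0.133 CPM. Group 4 was more even, with Hoxa4, Hoxb4 and Hoxc4 between 0.610 and 0.722 CPM. These are differences between pooled levels, with no test.

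Genes that work with or act on the Hox genes were read against the same background, 65.0% of all genes and 80.3% of protein-coding genes at or above 1 CPM. Among the TALE cofactors, homeodomain proteins that bind DNA together with Hox proteins, 6 of the 8 considered (75.0%) lay at or above 1 CPM, near that background. Pbx2 was the highest at 92.6 CPM, and Pknox1 had 30.3 CPM and Pbx4 19.1 CPM. The Meis genes, which in the embryo are often expressed with Hox genes, were the low ones: Meis2 had 1.01 CPM, Meis1 0.911 CPM and Meis3 0.737 CPM. All 22 listed Polycomb genes lay above 1 CPM, with Suz12 at 490 CPM and Cbx8, the lowest, at 4.28 CPM. Of 18 activators and retinoic acid genes considered, 15 had a row and 11 (73.3%) lay at or above 1 CPM, again near the background. The retinoic acid receptor genes Rara (67.1 CPM) and Rarg (51.9 CPM) were high, whereas Rarb (0.295 CPM), a target of the same receptors, and the mesoderm gene T (0.470 CPM) were low. Of the activators that bind the clusters, Cdx1 had 2.57 CPM, and Kmt2a, which writes the opposing active mark, had 175 CPM.

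Of 8 genes beside the clusters with a row, 6 (75.0%) lay at or above 1 CPM, also near the background, among them Skap2 beside Hoxa (140 CPM), Mtx2 (66.1 CPM) and Lnpk (44.9 CPM) beside Hoxd, and Calcoco1 (33.2 CPM) beside Hoxc. Evx1, the homeobox gene beyond Hoxa13, was low at 0.133 CPM, and so was Skap1 beyond Hoxb1 at 0.232 CPM. Of the noncoding RNAs listed for the clusters 4 had a row. Halr1, beside the Hoxa cluster, had 4.34 CPM and 4.43 CPM per kb, above each of the 33 Hox genes per kb. Hotairm1, a transcript of the Hoxa cluster, had 0.913 CPM, and Hoxaas3 and Hoxb3os had 0.295 and 0.176 CPM.

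Markers of ESCs and of fibroblasts, the feeder cells, were both detected. All 20 pluripotency genes lay above 1 CPM, from 10.2 CPM (Dppa2) to 1170 CPM (Dppa5a). Of 20 fibroblast genes, 17 (85.0%) lay at or above 1 CPM, near the 80.3% of protein-coding genes. All 20 summed to 2681 CPM, of which Fn1, a gene that ESCs also express, gave 2354 CPM. The collagen gene Col1a1 had 97.0 CPM, and Twist2 was the lowest at 0.204 CPM. As all 6 libraries are pooled in this value, it cannot be said which cells or groups the Hox reads came from, and the part of feeder RNA in the Hox levels was not tested. Drosha itself could be seen only as the pooled mean of 95.7 CPM, which does not check the deletion.

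The second question was whether RNA ends left by RNase III cleavage occur in the Hox clusters and whether they depend on Drosha or Dicer. Drosha cuts the stem-loop of a primary miRNA transcript, and the 3′ remainder keeps its polyA tail and a 5′P. In Degradome-seq a linker is ligated to such ends, so each read starts at the cut. The deposited tables list pile-up sites chosen by a classifier trained on miRNA sites, 3919 sites in the Drosha table and 4666 in the Dicer table, in RPM (read starts scaled to the mapped reads of the library). By the study's methods a site was kept only where the classifier accepted it in both control libraries. The study reports fewer such sites than are listed here, for both enzymes, and the reason is not given. Where the rule held, a site had to show a pile-up of read starts in the controls, with no minimum depth stated. Such a choice could favor lower values in the deficient libraries, which was not tested, so the shares and medians over a table are descriptions of that list. One read was worth 0.0289 to 0.0349 RPM, so a floor of 3 reads lay at 0.0868 to 0.105 RPM. Such a floor covers counting error only. None of the sites lay inside one of the Hox genes considered in either table. Between the first and last gene of a cluster, 4 sites were listed for Drosha and 2 for Dicer, all in Hoxb, and 1 of them was common to both. Neither table held a site in the Hoxa (from Hoxa2 to Hoxa13), Hoxc or Hoxd cluster.

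The 5 positions in the Hoxb cluster are shown here in the reference (GRCm38.p6, read strand), to show where the reads begin. The 15 bases before the read start are in lower case, and the first 15 bases of the reads are in capitals.
Site 1.9 kb from Hoxb13, minus strand, chr11:96199301-96199330: agaaaatcgcagcagGTGAGTCAGGGTAGT
Site 36.5 kb from Hoxb13, plus strand, chr11:96233915-96233944: taacatttgaaatgtAAGCCGGGCGTGGTG
Site 35.0 kb from Hoxb9, plus strand, chr11:96236487-96236516: ggaaagcaaacaaacAAGTCGGGCATGGTG
Site in Mir196a-1, plus strand, chr11:96265232-96265261: atcaaaccacctgatTCATGGCAGTTACTG
Site 2.3 kb from Hoxb9, plus strand, chr11:96269109-96269138: gaatctgcagcaaagCCCGGGAGAGGAATG
All 5 lie between Hox genes. In GENCODE only the fourth falls in an annotated gene, the exon of Mir196a-1, and in RefSeq the first falls in the noncoding gene Gm30134. The first 30 bases occur once in the chromosomes of the reference at 4 of the positions. At the site 36.5 kb from Hoxb13 they occur 214 times.

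The site in Mir196a-1 was the most abundant of the 5. Mir196a-1, which lies between Hoxb13 and Hoxb9, encodes miR-196a, a miRNA known to act on Hox mRNAs. The stem-loop of RefSeq (chr11:96265164-96265265, plus strand, 102 bases) is printed with its 5p and 3p mature miRNAs in capitals, to show where the cut falls.
Mir196a-1: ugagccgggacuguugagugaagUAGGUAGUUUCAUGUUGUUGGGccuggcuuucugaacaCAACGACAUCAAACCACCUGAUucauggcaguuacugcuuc
The reads began at chr11:96265247, which is 1 base after the last base of miR-196a-1-3p, and left the last 19 bases of the stem-loop (ucauggcaguuacugcuuc) on the polyA fragment. The end of the 3p miRNA is where Drosha is known to cut the 3′ arm. Across the Drosha table, 69 sites began 0 to 3 bases after the end of the last mature miRNA of a stem-loop, 47 of them at exactly 1 base, as here. By the study's methods the classifier was trained on positions directly beside annotated mature miRNAs. These counts are therefore not independent of how the sites were chosen. Of the 6 miRNA genes in the clusters, no other had such a site.

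Read starts at Mir196a-1 did not pass the call without Drosha. The control libraries had 19.4 RPM in replicate 1 and 25.8 RPM in replicate 2, and the Drosha-deficient libraries 19.2 and 15.1 RPM, from 434 to 753 reads. The means were 22.6 ± 4.51 RPM (SD, n = 2) and 17.2 ± 2.93 RPM (SD, n = 2), and the lower control lay just above the higher deficient library. Such separation in this direction was seen at 59.9% of all sites of the table. The log2 fold change was −0.39 ± 0.34 (SE), with a 95% interval from −1.10 to 0.32 and an adjusted p of 0.326 in limma. The interval does not reach the −1.5 used as a call, but it includes a fall by 1 on the log2 scale. The median log2 fold change over the Drosha table, whose sites were chosen on the controls, was −0.93, and the value of this site was 0.54 above it. When every library was centred on the median of its sites, all sites moved alike and the fitted value here was 0.20. The sign at this site therefore depends on the scaling, while its distance from the median stayed at 0.54.

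Most other miRNA sites of the same kind were called lower. Of the 69 miRNA 3′ sites, 50 (72.5%) were called lower in Drosha-deficient cells and 0 higher, against 37.6% called lower over all sites of the table. Their median log2 fold change was −1.95, and that of Mir196a-1 was the fifth highest. In control cells Mir196a-1, at 22.6 RPM, ranked 15th of the 69, whose median was 3.54 RPM. No test was made of Mir196a-1 against the others. The share called lower over all sites of the table was 14.0% with a pseudocount of 1 RPM and 22.2% with centring. The 69 sites were counted in the main fit only.

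**Figure D3:**
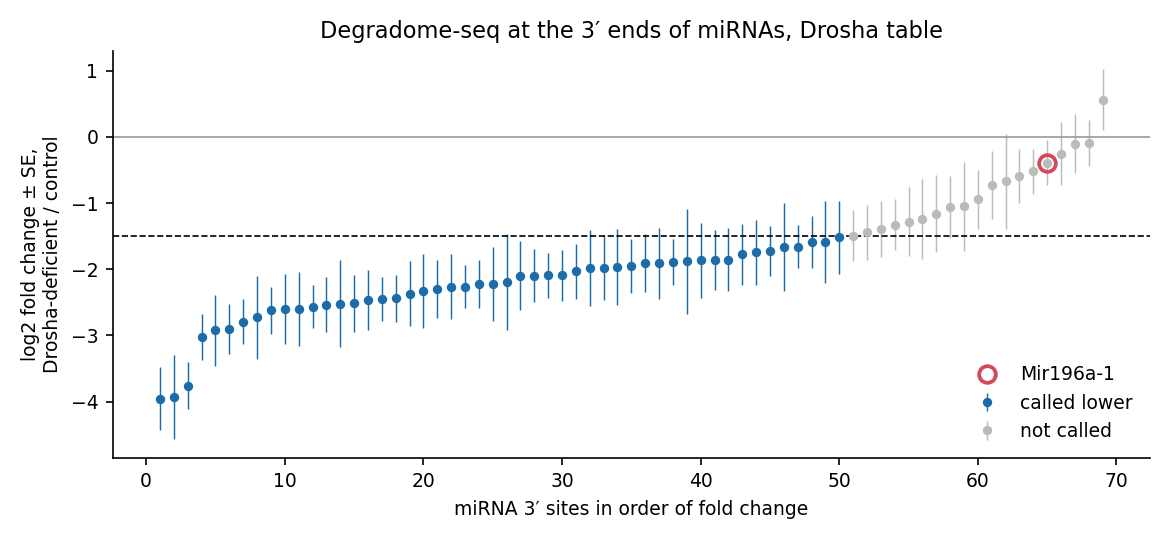
Log2 fold change of Drosha-deficient against control Degradome-seq (y axis, points ± SE) at the 69 sites that begin 0 to 3 bases after the last mature miRNA of a stem-loop, in order of fold change (x axis). Blue points were called lower, grey points were not called, the dashed line marks −1.5, and the circled Mir196a-1 lies at −0.39, the fifth highest.

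Without Dicer the Mir196a-1 site was again not called. The GFP control libraries differed widely, with 11.9 RPM in replicate 1 and 24.5 RPM in replicate 2, and the Dicer-deficient libraries had 23.0 and 21.5 RPM, between the controls' values. The log2 fold change was 0.38 ± 0.42 (SE), with a 95% interval from −0.62 to 1.39 and an adjusted p of 0.730 in limma. Control replicate 1 decides its sign, since the value was −0.14 without that library and 0.90 without control replicate 2. The Drosha and Dicer tables were scaled separately, and no test was made across them. In the whole Dicer table limma called 0 of 4666 sites (0%), with 459 sites at an unadjusted p under 0.05. The edgeR test on the reads recovered from the RPM values also called 0. With the replicate number as a block, limma called 186 sites, and 947 had an unadjusted p under 0.05.

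RNA from the sequence just before this miRNA was abundant next to that of the Hox genes. Mir196a-1 was the only one of the 6 miRNA genes of the clusters with a row in the gene table, at 2.00 CPM. Directly before it lies Gm53 (chr11:96251105-96264868, plus strand), a long noncoding RNA that ends 295 bases from the stem-loop and that was chosen for mention after its value was seen. Gm53 had 40.9 CPM and 10.3 CPM per kb, which was 12.0-fold above Hoxb9, the next Hox gene in the direction of transcription, and 3.37-fold above Hoxc13. None of the 33 Hox genes had as high a level per kb.

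The site 36.5 kb from Hoxb13 was the only one in a Hox cluster that passed the call. It had 2.06 and 1.74 RPM in the control libraries and 10.5 and 7.23 RPM in the Drosha-deficient libraries, from 51 to 324 reads, and the groups did not overlap, as was so in this direction for 21.2% of all sites. The means were 1.90 ± 0.221 RPM (SD, n = 2) and 8.84 ± 2.28 RPM (SD, n = 2). The log2 fold change was 2.14 ± 0.39 (SE), a 4.41-fold rise with a 95% interval from 2.51-fold to 7.74-fold, and the adjusted p in limma was 0.000214. Over the 12 alternative fits its log2 fold change ran from 1.74 to 2.73, and every fit that kept all libraries called it. Several of these, such as a call threshold of 1 and the replicate block, cannot change that value. Of all sites of the table, 9.57% were called higher, so 1 of 4 is too few to set the Hox sites apart. Centring each library on its median moved the table from 1473 lower and 375 higher calls to 871 lower and 602 higher.

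The reads at this site began in a repeat. Its first bases hold GGGCGTGGTG, letters found near the start of the B1 repeat, a short interspersed element with very many copies in the mouse genome. Searched on the read strand in the first 30 bases of each site, these letters were present at 377 of 3919 sites of the Drosha table (9.62%). Of those 377 sites, 34.7% were called higher in Drosha-deficient cells, against 6.89% of the sites without the letters. Their median log2 fold change was 1.13, against −1.15. No test was made of that difference, and the shares are from the main fit only. The letters were taken from this site, which is itself among the 377. With 214 exact copies of its first 30 bases, the reads of this site could come from another copy unless their later bases place them. The site was not in the Dicer table, where 549 sites held the letters. Their median log2 fold change was 0.25, against −0.18 for the sites without the letters, and limma called none of them. The printed first bases of the site 35.0 kb from Hoxb9 are similar, but do not hold these exact letters.

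None of the remaining 3 sites was called. The site 2.3 kb from Hoxb9 had 1.60 and 1.92 RPM in control libraries and 0.871 and 1.01 RPM in Drosha-deficient libraries. The groups did not overlap, as was so in this direction at 59.9% of all sites. Its log2 fold change was −0.84 ± 0.45 (SE) with an adjusted p of 0.116 in limma, near the median of the table. The site 1.9 kb from Hoxb13 had 0.662 and 1.64 RPM in control libraries and 0.936 and 1.25 RPM in Drosha-deficient libraries, from 19 to 48 reads. There the controls lay on either side of the deficient libraries. The log2 fold change of 0.04 ± 0.51 (SE) had an adjusted p of 0.954 in limma, and it turned to −0.56 without control replicate 1 and to −0.15 without Drosha-deficient replicate 2. The site 35.0 kb from Hoxb9, seen only in the Dicer table, had 1.33 and 1.95 RPM in GFP control libraries and 1.52 and 0.733 RPM in Dicer-deficient libraries. These overlapped, and the log2 fold change was −0.56 ± 0.54 (SE) with an adjusted p of 0.699 in limma.

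**Figure D4:**
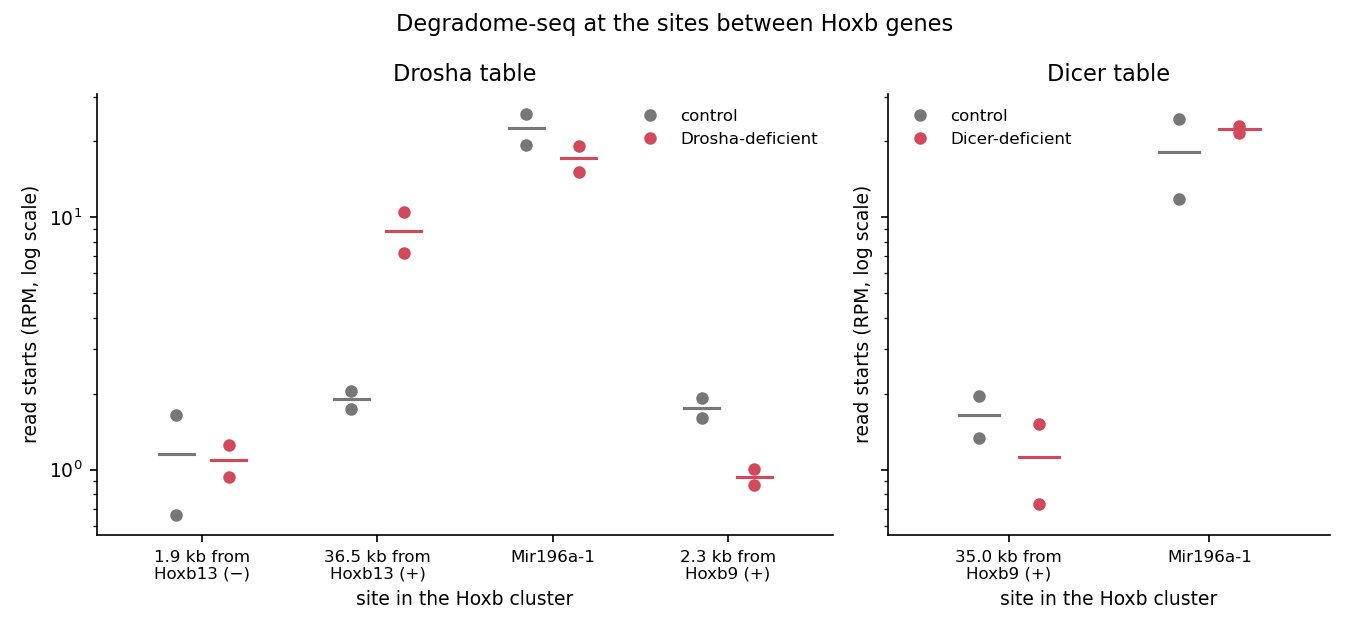
Degradome-seq read starts (y axis, RPM, log scale) in each library at the sites between Hoxb genes, for the Drosha table (left) and the Dicer table (right), with points for libraries and short lines for group means (n = 2). The groups separate at the site 36.5 kb from Hoxb13, the site 2.3 kb from Hoxb9 and, narrowly, at Mir196a-1 in the Drosha table, and the Mir196a-1 site is the most abundant in both tables.

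**Figure D5:**
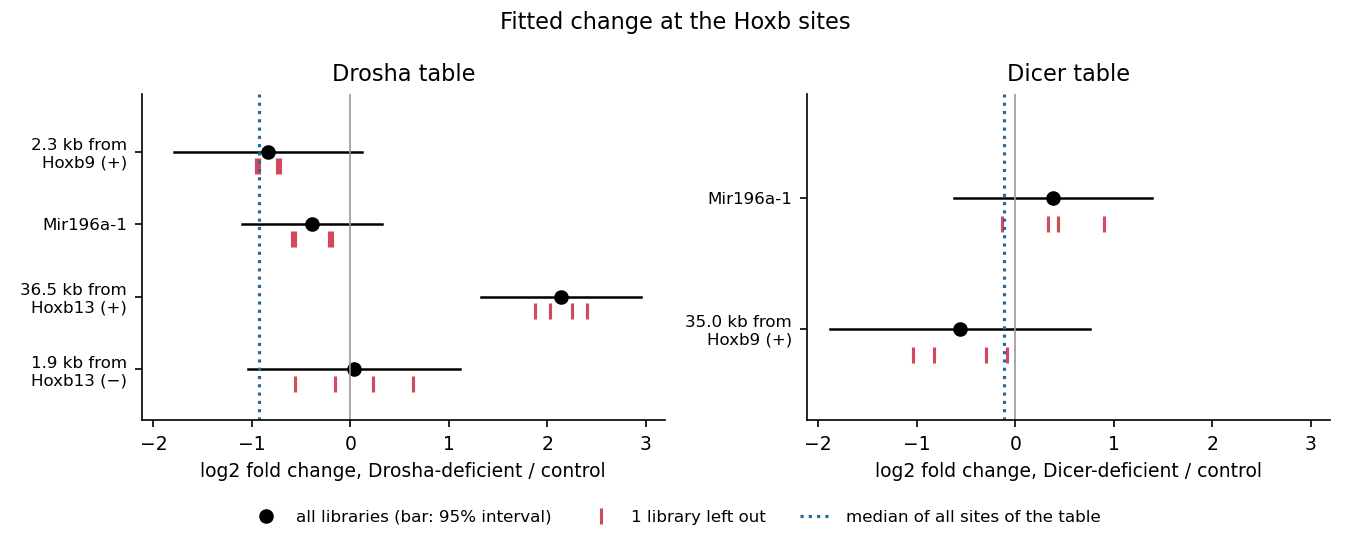
Fitted log2 fold change (x axis) at each site in the Hoxb cluster, with all libraries (black point, bar for the 95% interval) and with 1 library left out (red ticks). The dotted line is the median of all sites of that table, −0.93 for Drosha and −0.12 for Dicer, and only the interval of the site 36.5 kb from Hoxb13 excludes 0.

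Cleavage of Hox mRNA guided by a miRNA would also leave a 5′P end, and miR-196 is known to cut Hoxb8 mRNA in the mouse embryo. The mature sequences of the clusters' main miRNAs from RefSeq (GRCm38.p6) are given with the seed, bases 2 to 8, in capitals, because the seeds form 3 families.
miR-196a-5p (Mir196a-1 in Hoxb and Mir196a-2 in Hoxc): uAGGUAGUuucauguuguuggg
miR-196b-5p (Mir196b in Hoxa): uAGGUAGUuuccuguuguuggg
miR-10a-5p (Mir10a in Hoxb): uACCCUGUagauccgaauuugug
miR-10b-5p (Mir10b in Hoxd): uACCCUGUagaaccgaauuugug
miR-615-3p (Mir615 in Hoxc): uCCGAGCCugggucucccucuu
The best match of miR-196a in these Hox transcripts was in the 3′ UTR of Hoxb8 (chr11:96284888-96284909, plus strand). There 21 of the 22 bases can pair and the other, in lower case, forms a G:U pair. That pair lies in the seed, so this stretch is not the exact seed match of Hoxb8 counted below.
Hoxb8: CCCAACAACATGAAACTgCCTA
The next best Hox transcripts, Hoxd8 and Hoxa4, each reached 15 pairs with miR-196a, G:U pairs not counted. A cut between the bases that face positions 10 and 11 of the miRNA would leave a fragment that begins at chr11:96284900. Neither Degradome-seq table holds a site within 2 bases of it. Hoxb8 had 0.260 CPM in the RNA-seq. The tables list only positions that passed the classifier, so a rarer cut may not appear in them.

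Seed matches were spread over the Hox transcripts at near the share of other genes. The letters ACTACCT, which pair with the miR-196 seed, occurred on the transcript strand in 8 of 33 Hox transcripts (24.2%), the longest coding one of each gene, and in 18.0% of 15438 such transcripts of the table. The 8 were Hoxa4, Hoxa5, Hoxa7, Hoxa9, Hoxb6, Hoxb7, Hoxb8 and Hoxc8. For the miR-10 seed, ACAGGGT was in 6 of 33 Hox transcripts (18.2%) and in 21.4% of all, and for miR-615-3p, GGCTCGG was in 6 of 33 (18.2%) and in 17.2% of all. Hox transcripts were shorter, with a median of 2.14 kb against 3.04 kb. These are matches of letters and say nothing of binding.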

How the data were processed

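Degradome-seq (8 libraries) and RNA-seq (6 libraries) of mouse ESCs were used. The members and gene lists were chosen with earlier results of these data known. Per the labels and the study's methods, the authors trimmed Degradome-seq reads with Trimmomatic 0.38.0, aligned them to GRCm38 with STAR, counted read starts and deposited RPM per library and site. For RNA-seq the authors deposited a mean log2 CPM per gene over all libraries from edgeR. The study's methods give its version, 3.26.1, for the Degradome-seq sites. The gene counter and annotation of the RNA-seq are not given in the sources used here. The authors' fold change, F, p-value and FDR columns were not used.

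Levels were 2 to the power of the deposited log2 CPM, divided by exon length from GENCODE vM21 for comparison between genes (99.9% of genes had a length). Sites were tested with limma 3.58.1 (R 4.3.3) on log2(RPM + 0.1), with a mean-variance trend, over all sites of each table, with Benjamini-Hochberg adjustment. A site was called where its FDR was below 0.05 and its log2 fold change beyond ±1.5. The RPM values were whole multiples of 1 read for 100% of values up to 100 RPM (within 0.1 read), with 1 read worth 0.0289 to 0.0349 RPM. Those reads were tested with the quasi-likelihood test of edgeR 4.0.16 as an added alternative. The fits were also run on simulated data, whose outcome is not given here. Genes named are those at or above 1 CPM, the highest and lowest of each cluster, those next to 1 CPM and lists of cofactors, regulators, Polycomb, neighbors and markers, and sites named are all those between the first and last gene of a cluster. Other members and sites are named by position or value, after their values were seen. Exact copies and seed letters were found with Python 3.11.15. Some items are not reported here.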

Additional observations from a re-analysis of the deposited data

How the results depend on the processing

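The number of Hox genes high enough to judge moved with the threshold, from 5 at 1 CPM to 10 at 0.5 CPM and 2 at 2 CPM. The 5 highest genes were those at or above 1 CPM with all exons, the longest transcript or no length. In the Drosha comparison 1 of the 4 Hoxb sites was called, and in the Dicer comparison 0 of 2, under every alternative run, with the replicate number as a block (1 and 0) and with edgeR on recovered reads (1 and 0), an alternative chosen after seeing the data. Over whole tables, calls in the Drosha table were 1848, 813 with a pseudocount of 1 RPM, 1850 with the replicate block and 1909 with edgeR, and 1307 to 1802 with 1 library left out. In the Dicer table they were 0, 186 with the replicate block, and 0 to 14 with 1 library left out, the 14 without Dicer-deficient replicate 2. Same-numbered libraries deviated together with correlations of 0.13 (Drosha) and 0.53 (Dicer), but they share only a number, so they were not treated as pairs. Leaving out a library leaves 1 in its group, assumed to vary like the other group. The site 1.9 kb from Hoxb13 reversed to −0.0058 with a pseudocount of 1 RPM and −0.078 with edgeR, and ranged from −0.56 to 0.63 with 1 library left out. The Mir196a-1 site was at 0.20 in the Drosha table with centring, which moves all sites alike. In the Dicer table it ranged from −0.14 to 0.90 with 1 library left out. The cause was not tested. Sites near 1 RPM rest on few reads, and 2 libraries per group limit every interval.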

Other observations

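Beyond Hoxa13 the tables held 2 sites, found by searching 50 kb outward from that gene after the cluster sites had been seen. The reads at both began within bases that recur in the genome, with 24 and 10162 exact copies of their first 30 bases. The site 20.1 kb from Hoxa13 (chr6:52280939, minus strand) had 7.77 and 6.95 RPM in control libraries and 4.65 and 5.00 RPM without Drosha. Its log2 fold change was −0.60 ± 0.36 (SE), with an adjusted p of 0.157 in limma. In the Dicer table it had 23.6 and 8.45 RPM in GFP control libraries and 14.8 and 14.0 RPM in Dicer-deficient libraries, an adjusted p of 0.988 in limma. The site 18.7 kb from Hoxa13 was in the Dicer table only, with a log2 fold change of −0.25 ± 0.42 (SE). That value turned to 0.14 without Dicer-deficient replicate 1 and was −0.64 without Dicer-deficient replicate 2. Neither was called in any comparison.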
